A study of Rattus norvegicus with 9 samples.

Results

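The RT1 complex is the major histocompatibility complex of the rat, and its genes were followed here in whole blood. All rows of the authors' gene table whose name starts with RT1- were taken, together with B2m, Cd74, Tap1 and Tap2, whose products work with the RT1 proteins. The rule gave 24 of 12854 genes, of which 11 belong to class I, 9 to class II and 4 are partners. A row described as RT1 class II, locus Ha, but not named so, falls outside the rule and had a mean FPKM of 0.00154. RNA was sequenced from blood incubated with a hydrogel made of DNA (DNAgel) for 15 min, from blood incubated with GS, a gelatin sponge used to stop bleeding, for 15 min, and from untreated Control blood. Each group had 3 libraries. The Control has no stated waiting time, so against Control the effects of time and of the material cannot be told apart. No source says if each library stands for another rat. The p-values thus cover the spread among libraries alone, and that spread could be technical. The study's rats were male Sprague-Dawley animals of 6 weeks, although its methods do not repeat this for the sequenced blood. The blood was not sorted, and both comparisons with Control use the same Control libraries.

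Class I molecules sit on nearly all nucleated cells and on platelets, and show peptides made inside the cell to T cells. Each has a heavy chain, coded by a class I gene, bound to beta-2 microglobulin, coded by B2m, and receives its peptides from the transporter formed by Tap1 and Tap2. Class II molecules pair an alpha with a beta chain, are carried mainly by B cells, dendritic cells and monocytes, and show peptides taken up from outside. Their assembly needs the invariant chain, coded by Cd74, and the accessory molecules DM, which loads the peptide, and DO, which restrains DM. Class Ia genes are the classical, highly variable class I genes, and class Ib genes are less variable and often have special ligands.

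Of the 24 genes, 22 lie on chromosome 20 in the table's coordinates, with B2m on chromosome 3 (109095729 to 109101766) and Cd74 on chromosome 18. The start regions of 23 genes were found in RefSeq (build GRCr8), and RT1-DMb had no entry. For the most abundant partner and the most abundant class I gene the 250 bases before the start are shown, since both hold letters known as promoter elements of antigen presentation genes. Capitals mark CCAAT (bound by NF-Y), TGACG (the core of the cAMP response element, CRE) and GAAA followed after any 2 bases by GAAA (the core of interferon-stimulated elements), on either strand. The B2m stretch is chr3:129549080-129549329 and the RT1-S3 stretch is chr20:2675278-2675527, both on the plus strand.
B2m: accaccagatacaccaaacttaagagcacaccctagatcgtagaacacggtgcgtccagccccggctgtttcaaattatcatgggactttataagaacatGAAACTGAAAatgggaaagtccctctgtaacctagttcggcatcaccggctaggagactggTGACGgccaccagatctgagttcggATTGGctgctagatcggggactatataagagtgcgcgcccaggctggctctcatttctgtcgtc
RT1-S3: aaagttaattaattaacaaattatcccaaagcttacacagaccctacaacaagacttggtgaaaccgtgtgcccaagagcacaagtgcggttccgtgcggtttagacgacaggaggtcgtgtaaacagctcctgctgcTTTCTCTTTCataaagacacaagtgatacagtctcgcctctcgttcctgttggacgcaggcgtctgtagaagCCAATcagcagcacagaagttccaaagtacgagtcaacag

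Class II promoters are known for a set of boxes bound together by RFX, CREB and NF-Y and read by the coactivator CIITA. The letters GCAAC followed on the same strand by ATTGG, with their first bases 31 to 35 apart, stood in 5 of the 8 class II windows (250 bases before to 50 after the start) and in 0 of the 11 class I windows. Among all 33469 RefSeq windows of 300 bases, 0.221% held the pair. These letters and spacings were chosen after the class II sequences had been seen, and the counts are a description. The RT1-DOb window holds the same letters on the same strand at a spacing just under this range, and is not counted. The stretches are shown, with the pair in capitals, because they set these class II genes apart from the class I genes in sequence. They are chr20:4515328-4515375 (plus strand) for RT1-Da, chr20:4576976-4577023 (plus) for RT1-Ba, chr20:4541703-4541748 (minus) for RT1-Db2, chr20:4560233-4560279 (minus) for RT1-Db1 and chr20:4758521-4758568 (minus) for RT1-DOa.
RT1-Da: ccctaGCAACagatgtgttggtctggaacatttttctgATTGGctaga
RT1-Ba: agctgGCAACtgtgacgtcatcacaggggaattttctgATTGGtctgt
RT1-Db2: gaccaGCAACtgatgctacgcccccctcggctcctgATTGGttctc
RT1-Db1: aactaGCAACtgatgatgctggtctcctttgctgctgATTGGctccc
RT1-DOa: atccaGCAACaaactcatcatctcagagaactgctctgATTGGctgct

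ATTGG is CCAAT read on the other strand, so the pair overlaps the CCAAT search. On either strand, CCAAT was found in 19 of the 23 windows (8 of 8 class II, 9 of 11 class I), against 37.5% of all windows. TGACG was found in 6 of 23 (1 of 8 class II, 4 of 11 class I), against 21.2%. The interferon element core was found in 5 of 23, against 3.92%, and those were B2m, RT1-S3, RT1-N3, Tap1 and Tap2, with no class II gene. TATAAA was found in 4 of 23, against 14.2%. The windows of RT1-CE11 and RT1-CE15 were the most alike, with 79.1% identical positions in a global alignment, so neighbouring genes do not give independent matches. A match describes letters in a window and does not show binding.

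**Figure D1:**
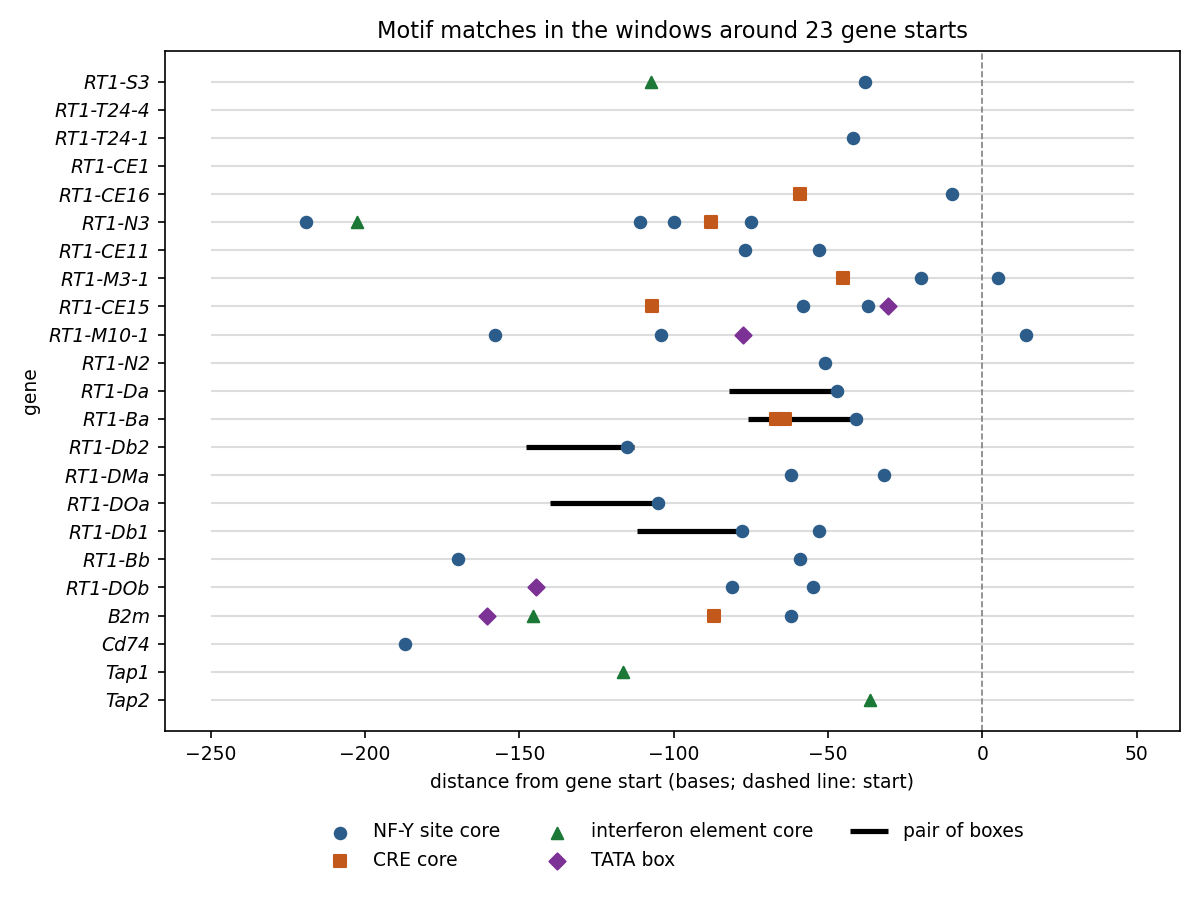
Matches to the NF-Y site core, the CRE core, the interferon element core and the TATA box (the letters named in the text) in the RefSeq windows of 23 genes, with the distance from the gene start in bases on the x axis (dashed line at the start) and 1 gene per row. Black bars span the GCAAC to ATTGG pair, which is drawn in 5 class II rows and in none of the class I rows.

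Depth limits what can be read. Total estimated counts per library lay between 51838917 and 68076324, but the 9 hemoglobin genes took 95.0% to 96.4% of them, which left 2344910 to 3216776 counts for all other genes. Levels below are the authors' FPKM, which is scaled to gene length and library total, so genes can be compared with each other. In every library 4 was the commonest estimated count above 0. A group with no counts was taken to allow up to 3 such units, or 12 counts in all. Such limits cover counting error only.

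B2m was by far the most abundant of the genes and ranked 19 among 12845 genes other than hemoglobin genes. Its FPKM was 258, 299 and 283 in the DNAgel libraries, 305, 305 and 242 in the GS libraries, and 245, 227 and 300.3 in the Control libraries. The groups overlapped in FPKM, and the highest Control value lay above all DNAgel values. As a share of the FPKM outside hemoglobin genes, B2m held 0.781%, 0.825% and 0.959% in DNAgel. It held 1.17%, 0.983% and 0.881% in GS, and 0.749%, 0.743% and 0.770% in Control. In this share both other groups lay above all Control libraries. The share was not tested and was not set beside that of other genes.

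RT1-S3, a class Ib gene, was the leading class I gene among the 11 rows analysed. It reached an FPKM of 11.5, 12.1 and 10.8 in the DNAgel libraries, 8.24, 11.2 and 11.4 in the GS libraries, and 10.7, 12.8 and 13.0 in the Control libraries. One GS library was low, and the groups overlapped. RT1-T24-4, a class I gene of the T24 locus, followed with an FPKM of 5.84, 7.76 and 7.92 in DNAgel, 5.52, 7.77 and 7.56 in GS, and 6.23, 6.60 and 6.86 in Control. In DNAgel and in GS, 1 library lay below all Control libraries and the others above. RT1-S3 ranked 239 and RT1-T24-4 ranked 323 among the 12845 genes.

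Together RT1-S3 and RT1-T24-4 held between 93.2% and 96.2% of the summed class I FPKM in the 9 libraries. Their ratio, RT1-S3 over RT1-T24-4, was 1.63 ± 0.309 in DNAgel, 1.48 ± 0.0301 in GS and 1.85 ± 0.119 in Control (SD, n = 3 each). The GS libraries thus lay below all Control libraries in this ratio, while DNAgel spanned both. The ratio was noticed in the data and was not tested. Both genes overlap the unnamed row ENSRNOG00000031607 on the same strand, as do RT1-N2 and RT1-N3. That row had a mean FPKM of 0.00447 over the 9 libraries, so little of the level of RT1-S3 or RT1-T24-4 was assigned to it.

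The third class I gene with values in every library, RT1-T24-1, was about an order of magnitude lower, with an FPKM of 0.589, 0.995 and 0.614 in DNAgel, 0.653, 0.751 and 0.790 in GS, and 0.698, 0.818 and 0.565 in Control. The groups overlapped. The other 8 class I genes each had a mean FPKM under 0.1.

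Rows described as class Ia were close to the lower limit. RT1-CE1, which the table describes as class Ia, locus A2, had counts of 8, 20 and 15 in DNAgel, 0, 14 and 0 in GS, and 21, 22 and 25 in Control. All Control counts lay above those of both other groups, but none exceeded 25, and in CPM 1 DNAgel library lay above Control. RT1-CE11, described as class Ia, locus A1, summed to 36 counts in DNAgel, 17 in GS and 37 in Control, and its row lies inside the unnamed row ENSRNOG00000069480 on the same strand. That row had 51 counts in DNAgel 1, 71 in GS 2, 112 in Control 3 and 0 elsewhere, and only in Control 3 were both rows above 0. The names of these 2 rows and their descriptions differ. Class I and II genes of the rat differ in number and sequence between strains, and counts of near-identical copies are uncertain.

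RT1-CE16 and RT1-CE15 share 15392 bases on the same strand, and were never both above 0 in one library. RT1-CE16 alone was above 0 in 3 libraries, with 107 counts in 1 GS library and 41 and 78 counts in 2 Control libraries. RT1-CE15 alone was above 0 in 5 libraries, with 15, 13 and 11 counts in DNAgel, 18 in GS and 11 in Control. Neither was above 0 in the remaining library, and the 0 counts of RT1-CE16 in DNAgel are therefore given with those of its overlapping neighbour.

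The remaining class I genes were sparse. RT1-N3 summed to 23 counts in DNAgel, 0 in GS (which allows up to 12) and 27 in Control. RT1-N2 had 5 counts, all in 1 Control library, which is under the limit of 12. RT1-M3-1, whose mouse counterpart presents formylated peptides, summed to 7, 14 and 18 counts in DNAgel, GS and Control. RT1-M10-1, of a family known in the mouse from the vomeronasal organ, summed to 34, 32 and 53 counts in DNAgel, GS and Control, and its row overlaps Trim39 and Rpp21 on the same strand.

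**Figure D2:**
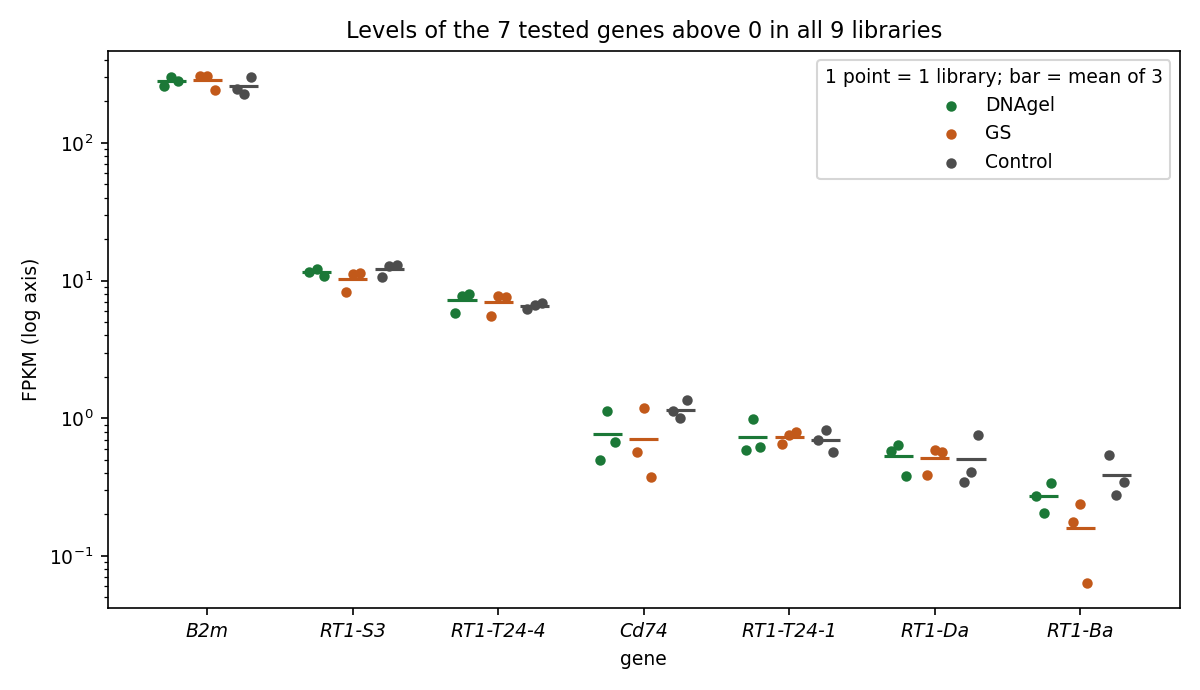
FPKM (log axis) of the 7 genes above 0 in all 9 libraries, with 1 point per library and a bar for the mean of 3 libraries. B2m lies between 227 and 305, RT1-S3 and RT1-T24-4 between 5.52 and 13.0, and the other 4 genes at 1.35 or less, with overlapping groups except for RT1-Ba in GS and Control.

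Class II transcripts were present at a low level, led by the alpha chains. RT1-Da, the alpha chain of the D molecule, had an FPKM of 0.574, 0.644 and 0.379 in DNAgel, 0.385, 0.585 and 0.571 in GS, and 0.347, 0.404 and 0.760 in Control. The spread within Control spanned the values of both other groups. RT1-Ba, the alpha chain of the B molecule, had an FPKM of 0.271, 0.204 and 0.338 in DNAgel, 0.176, 0.239 and 0.0641 in GS, and 0.538, 0.279 and 0.344 in Control. All GS libraries lay below all Control libraries, on 46 counts in GS and 114 in Control over 3 libraries each.

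The beta chains that pair with them were much lower. RT1-Db1, RT1-Db2 and RT1-Bb had mean FPKM values under 0.1, and the alpha chains Da and Ba made up 70.6% to 91.1% of the summed class II FPKM. RT1-Bb summed to 9 counts in DNAgel, 10 in GS and 0 in Control, all under the limit of 12. RT1-Db2 summed to 37, 20 and 52 counts and RT1-Db1 to 10, 15 and 30 counts in DNAgel, GS and Control. In every library the alpha chains of B and D exceeded the beta chains in summed FPKM, by 7.07 to 57.8 times. The ratios of 57.8 in DNAgel 1 and 40.1 in GS 1 rest on 6 RT1-Bb counts in each library, with RT1-Db1 and RT1-Db2 at 0. The size of the alpha excess is therefore uncertain.

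Among the accessory chains, RT1-DMb had 8, 4 and 0 counts in DNAgel, 12, 12 and 0 in GS, and 0, 0 and 20 in Control. RT1-DMa had 0 counts in every DNAgel and GS library (each group allows up to 12) and 0, 27 and 4 in Control. RT1-DOa summed to 0 counts in DNAgel, 7 in GS and 12 in Control. RT1-DOb had 6 counts, all in 1 Control library. Only RT1-DMb of these was tested, and it did not pass in any comparison. The 31 Control counts of RT1-DMa exceed the limit of 12 in the other groups, but 27 of them come from 1 library.

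Cd74, the invariant chain, was higher than any single class II gene on average, at an FPKM of 0.501, 1.14 and 0.668 in DNAgel, 0.565, 1.19 and 0.372 in GS, and 1.12, 0.996 and 1.35 in Control. In DNAgel and in GS 1 library lay within the Control range and the other 2 below it. Cd74 came to between 0.477 and 1.17 times the summed class II FPKM in the 9 libraries.

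The peptide transporter was at the edge of detection. Tap1 had 4, 13 and 0 counts in DNAgel, 0 in each GS library and 0, 4 and 12 in Control, which gives 17 counts in DNAgel and 16 in Control against a limit of 12 for GS. Tap1 overlaps Psmb9 on the opposite strand. Tap2 had 3 counts, all in 1 DNAgel library. Tap2, RT1-N2, RT1-DOb and RT1-Bb were under the limit in every group, so their levels cannot be compared.

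**Figure D3:**
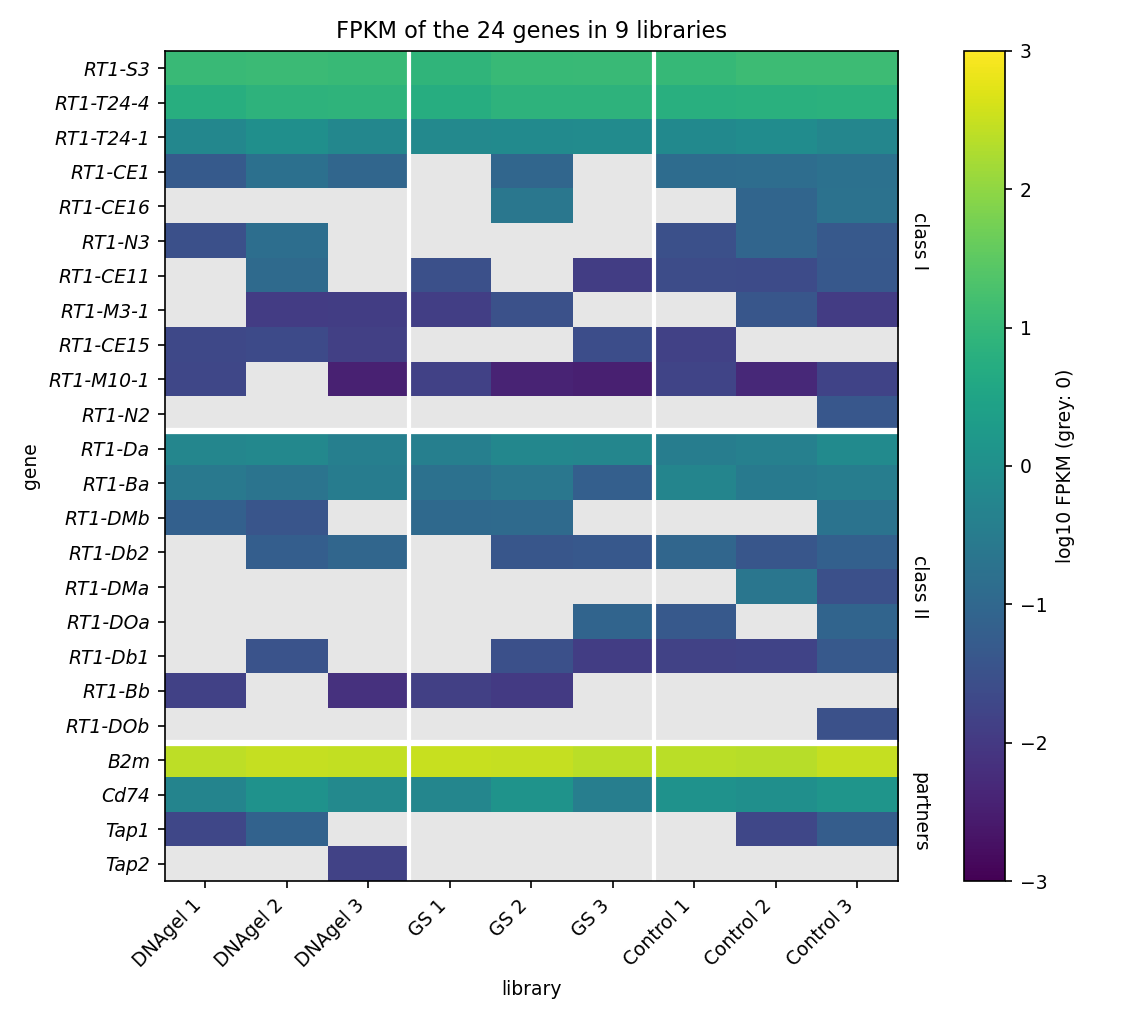
FPKM of the 24 genes (rows, by class) in the 9 libraries (columns, in 3 groups of 3), on a log10 color scale with 0 in grey. B2m is brightest, RT1-S3 and RT1-T24-4 follow, and most other rows hold grey cells.

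Between 14 and 16 of the 24 genes were above 0 in the DNAgel libraries, 12 to 15 in GS and 15 to 21 in Control. The library with 21 was Control 3, which also had the most genes above 0 in the whole table (8417, against 6029 to 7125 in the other 8) and the most counts outside hemoglobin. The part of this in the sparse genes was not tested.

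Set side by side, class I exceeded class II in every library, by 13.4 to 25.3 times in summed FPKM. Class I summed to 19.6 ± 1.63 in DNAgel, 18.1 ± 3.16 in GS and 19.8 ± 1.70 in Control (FPKM, SD, n = 3 each). Class II summed to 0.910 ± 0.0840 in DNAgel, 0.829 ± 0.175 in GS and 1.19 ± 0.325 in Control. The class II share of the RT1 total was 4.45% ± 0.428 in DNAgel, 4.38% ± 0.533 in GS and 5.65% ± 1.25 in Control. The groups overlapped in all of these, and the Control mean of class II holds 1 library at 1.56 and 2 at 1.05 and 0.963, the highest being Control 3.

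B2m exceeded the summed class I heavy chains in every library. The ratio of B2m to class I was 14.3 ± 0.242 in DNAgel, 16.1 ± 4.51 in GS and 13.0 ± 1.78 in Control (SD, n = 3 each), and at most 21.1 in any library. The highest ratio belonged to the GS library with the low RT1-S3 value. DNAgel libraries were close together in this ratio, and lay within the range of GS. The sum covers the 11 class I rows analysed.

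**Figure D4:**
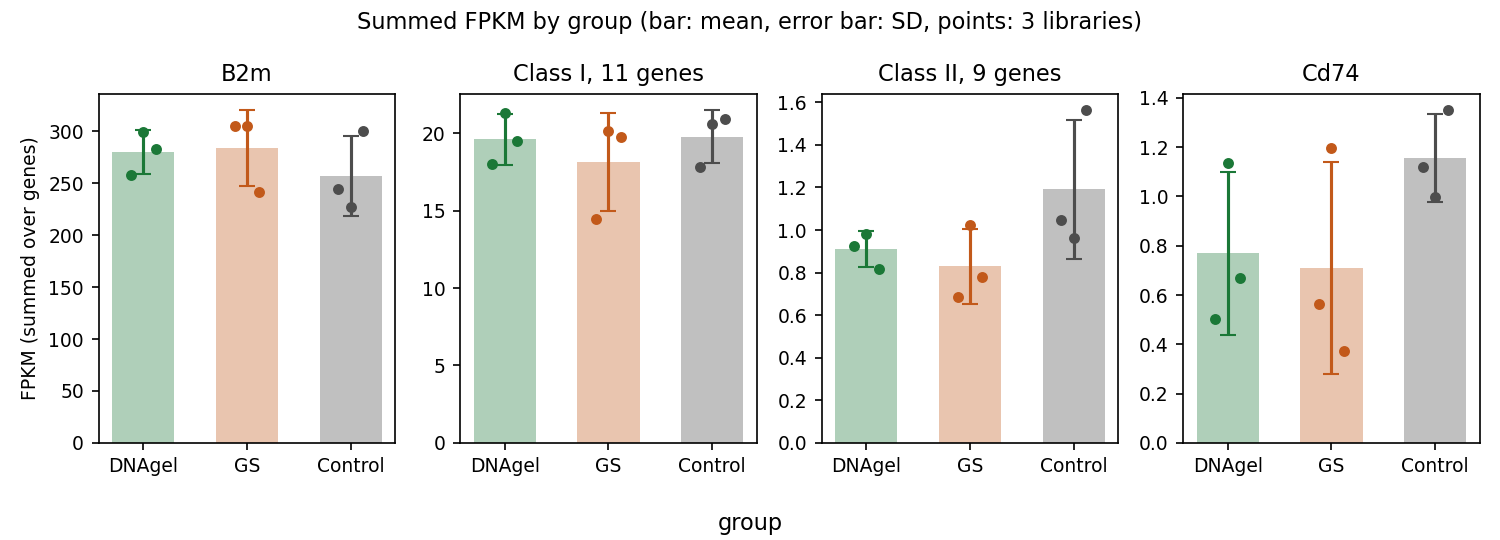
Summed FPKM of B2m, the 11 class I genes, the 9 class II genes and Cd74 in DNAgel, GS and Control, with bars for the mean, error bars for the SD and a point for each of 3 libraries. Each panel has its own axis from 0; class I sums lie between 14.5 and 21.3 and class II sums between 0.685 and 1.56, and the groups overlap in every panel.

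The groups were compared by the quasi-likelihood test of edgeR. A gene entered the test if its FPKM exceeded 0.1 in 3 or more libraries, which 3561 genes did. Benjamini-Hochberg adjustment ran over all 3561, with 0.05 as the threshold. Of the 24 genes, 9 passed this filter (B2m, RT1-S3, RT1-T24-4, Cd74, RT1-T24-1, RT1-Da, RT1-Ba, RT1-CE1 and RT1-DMb) and 15 did not. In bulk blood, fewer cells of a type and less RNA per cell cannot be told apart.

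For DNAgel against GS, 0 of the 9 genes passed the threshold, against 0.814% of all genes tested. None had an unadjusted p under 0.05 by edgeR (against 9.44% of all genes), by DESeq2, or by limma on log2(FPKM + 0.1) or log2(FPKM + 1), while limma on log2(FPKM + 0.01) gave RT1-CE1 an unadjusted p of 0.0477. The lowest adjusted p by edgeR was 0.807. For none of the 9 did the libraries of the groups fail to overlap in CPM, against 14.7% of all genes. The log2 fold change of B2m was -0.13 ± 0.14 (SE), with a 95% interval of -0.42 to 0.17. That of RT1-S3 was 0.063 ± 0.13 (-0.21 to 0.34) and that of RT1-T24-4 was -0.056 ± 0.14 (-0.36 to 0.25). The median over the 9 genes was -0.045, beside 0.035 over all genes tested. The interval of RT1-Ba was wider, at -0.49 to 1.86 around 0.69.

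For DNAgel against Control, 0 of the 9 genes passed, against 0% of all genes tested, and the adjusted p of each was 0.994 by edgeR. None had an unadjusted p under 0.05 by edgeR (against 3.79% of all genes), DESeq2 or limma. B2m had a CPM (counts scaled to library size by TMM) of 580.4, 549 and 597 in DNAgel and 518, 451 and 537 in Control. DNAgel libraries thus lay above Control libraries on this scale, although not in FPKM, and B2m was the only one of the 9 whose groups did not overlap. Of all genes tested, 4.94% lay wholly above Control and 10.2% did not overlap in either direction. The log2 fold change of B2m was 0.20 ± 0.14 (-0.098 to 0.49), that of RT1-S3 was -0.0100 ± 0.13 (-0.29 to 0.27), and that of RT1-T24-4 was 0.19 ± 0.14 (-0.11 to 0.50). Cd74 had a log2 fold change of -0.55 ± 0.35 (-1.30 to 0.20). The median over the 9 genes was -0.0100, beside -0.014 over all genes tested.

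For GS against Control, 0 of the 9 genes passed, against 0.646% of all genes tested. B2m had the lowest adjusted p by edgeR, 0.497, with an unadjusted p of 0.0339, and it was the only one of the 9 under an unadjusted 0.05, against 8.85% of all genes. By DESeq2, B2m was again the only one (unadjusted p 0.00756). By limma on log2(FPKM + 0.1), B2m had a smaller log2 difference of 0.14 and an unadjusted p of 0.285, and RT1-Ba (0.0147) and RT1-CE1 (0.0168) were the 2 genes under 0.05. The CPM of B2m was 718, 639 and 527 in GS, against 518, 451 and 537 in Control, so 1 GS library lay within the Control range. Its log2 fold change was 0.32 ± 0.14 (0.028 to 0.62). RT1-S3 had a log2 fold change of -0.073 ± 0.13 (-0.35 to 0.20) and RT1-T24-4 of 0.25 ± 0.14 (-0.058 to 0.55).

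In the same comparison, RT1-Ba and RT1-CE1 had all GS libraries below all Control libraries, as had 10.7% of all genes tested (17.2% in either direction). These 2 were the only ones of the 9 whose groups did not overlap. RT1-Ba had a CPM of 0.294, 0.359 and 0.107 in GS, against 0.810, 0.406 and 0.441 in Control, and a log2 fold change of -1.11 ± 0.54 (-2.28 to 0.059), with an adjusted p by edgeR of 0.592. Cd74 had a log2 fold change of -0.54 ± 0.35 (-1.29 to 0.21). The median over the 9 genes was 0.22, beside -0.043 over all genes tested.

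For B2m, RT1-S3 and RT1-T24-4, the 95% intervals in the 3 comparisons lay between -0.42 and 0.62 on the log2 scale. They were wide for RT1-DMb, from -5.01 to 4.48 at their extremes. For RT1-CE1 they ran from -1.09 to 4.31 (DNAgel against GS), from -3.04 to 2.06 (DNAgel against Control) and from -4.81 to 0.62 (GS against Control).

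**Figure D5:**
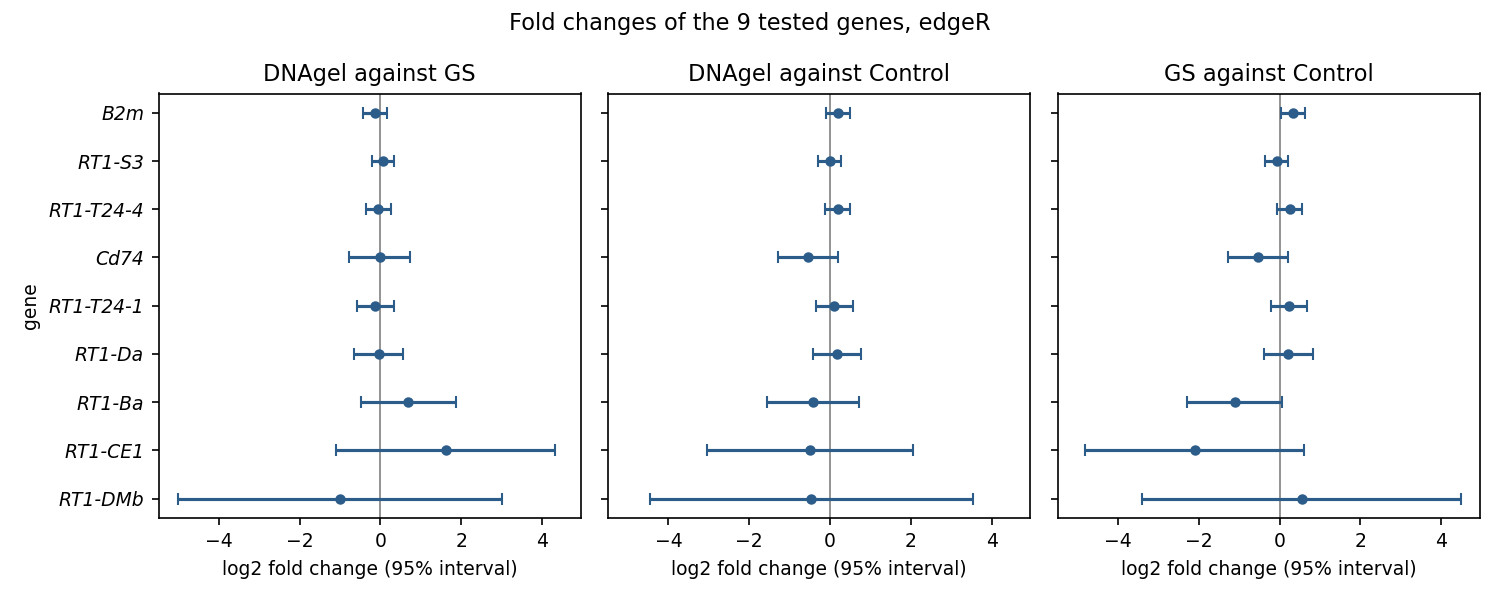
Log2 fold changes with 95% intervals (x axis) of the 9 tested genes (rows) in 3 panels (DNAgel set against GS, DNAgel set against Control, GS set against Control). All intervals cross 0 except that of B2m for GS against Control (0.028 to 0.62), and they widen toward the low RT1-CE1 and RT1-DMb.

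Genes that prepare the peptides or switch on class I were taken as a list of 14, of which 12 were in the table and 7 were tested. None passed by edgeR in any comparison. The most abundant were Calr, the chaperone calreticulin, at an FPKM of 18.3 ± 4.70 in DNAgel, 15.3 ± 1.81 in GS and 19.4 ± 3.28 in Control, and Pdia3, a disulfide isomerase of the peptide-loading complex, at 0.964 ± 0.247, 0.464 ± 0.0882 and 1.02 ± 0.216 (SD, n = 3 each). All GS libraries lay below all others in Pdia3 FPKM, with at least 0.716 in DNAgel, at most 0.541 in GS and at least 0.819 in Control. Of all genes tested, in CPM, 8.71% had DNAgel wholly above GS and 10.7% had GS wholly below Control. Its log2 fold change by edgeR was 0.94 ± 0.23 for DNAgel against GS (adjusted p 0.111) and -0.96 ± 0.23 for GS against Control (adjusted p 0.0987). With DESeq2, Pdia3 passed in both. Psme2, a proteasome activator subunit, was the other gene of the list with an unadjusted p under 0.05 by edgeR in these comparisons, at 0.0327 and 0.0400. Its FPKM was 0.453 ± 0.119 in DNAgel, 0.118 ± 0.115 in GS and 0.442 ± 0.207 in Control. Of all genes tested, 9.44% and 8.85% were under an unadjusted 0.05 in these comparisons, beside 2 of the 7 tested here.

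The class II list held 15 genes, of which 14 were in the table and 6 were tested, and none passed by edgeR in any comparison. Ctsb, a lysosomal cathepsin, led with an FPKM of 33.9 ± 7.29 in DNAgel, 26.4 ± 4.19 in GS and 34.2 ± 8.89 in Control, followed by Nfyc, a subunit of NF-Y, at 0.538 ± 0.162, 0.652 ± 0.127 and 0.711 ± 0.0736 (SD, n = 3 each). Lgmn, a lysosomal protease, alone had an unadjusted p under 0.05 by edgeR, for DNAgel against GS (0.0134, adjusted p 0.340) and GS against Control (0.00763, adjusted p 0.306). That is 1 of 6, beside 9.44% and 8.85% of all genes tested. Lgmn had an FPKM of 0.430 ± 0.174 in DNAgel, 0.156 ± 0.0925 in GS and 0.495 ± 0.150 in Control. The coactivators were near 0, with mean FPKM values of 0.00436 for Ciita and 0.000826 for Nlrc5, the class I counterpart of Ciita. Psme2, Lgmn, Ciita and Nlrc5 were picked after their values were seen.

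Markers of blood cell types were measured in the same libraries. Those of red cells summed to an FPKM of 1254 to 1501 over the 9 libraries and those of platelets to 335 to 538. Neutrophil markers summed to 13.9 to 20.9. The marker sums of the main class II carriers were lower, but sums over lists of different genes do not rank cell types. Monocyte and macrophage markers summed to 5.05 to 8.39 in DNAgel, 4.95 to 5.90 in GS and 4.28 to 9.76 in Control. In the same order, B cell markers summed to 0.274 to 1.36, 0.326 to 0.767 and 0.453 to 1.11. Dendritic cell markers summed to 0.0918 to 0.156, 0.122 to 0.196 and 0.103 to 0.181. Lyz2 made up most of the monocyte and macrophage sum, with mean FPKM values of 5.80 in DNAgel, 5.35 in GS and 5.86 in Control. The sum thus says little about the lower markers of that list, such as Csf1r (0.163, 0.0271 and 0.168) and Fcgr1a (0.140, 0.0154 and 0.155). Neither of these 2 passed by edgeR. The adjusted p of Csf1r was 0.448 for DNAgel against GS and 0.486 for GS against Control. That of Fcgr1a was 0.656 and 0.657, and its Control values ranged from 0 to 0.295. Csf1r and Fcgr1a were picked after their values were seen. The untested markers of the list had mean FPKM values of 0.0314 or less and went in different directions. Cd68 (0, 0.0202 and 0) was highest in GS and Cx3cr1 (0.0296, 0.00628 and 0.00761) in DNAgel. Not analysed were 3 of 8 B cell markers, 1 of 9 monocyte and macrophage markers and 1 of 6 dendritic cell markers. No listed marker that was analysed was at 0 in all 9 libraries. The part of these blood cell types in the class II and Cd74 levels was not tested.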

How the data were processed

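Whole-blood RNA of 9 rat libraries was read from 1 table of 12854 genes. The authors deposited unscaled estimated counts, all whole numbers, beside FPKM, in which they scaled for gene length and library total. Poly(A) RNA was used, the library kit keeps the strand, and adapters carry molecular identifiers. StringTie 1.3.4d, HISAT2 2.0.4, cutadapt 1.9 and UMI-tools are named in the submitters' processing notes. They name a mouse build while the table holds rat identifiers, so no build is assigned to its coordinates.

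Counts were tested with edgeR 4.0.16 (TMM, robust quasi-likelihood, all 9 libraries, no block) in R 4.3.3. Alternatives were DESeq2 1.42.0, limma 3.58.1 on log2(FPKM + 0.1, 0.01 or 1), other filters and scalings, a replicate block, and leaving out each library. Intervals are 95% t intervals of the fold change. Genes with a mean FPKM of at least 1 are described in full and the others by level and count; of the lists, genes past the threshold and otherwise the 2 most abundant are named. The values per library of other genes, and Pdia3's call by DESeq2, were chosen for print after they were seen. The members and lists were chosen with earlier results of these data known. The test result of 1 cell type marker is not reported here.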

Additional observations from a re-analysis of the deposited data

How the results depend on the processing

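Each log2 fold change of the 9 tested genes was recomputed under 20 to 22 settings. Of the 558 recomputed values, 524 kept their direction and their side of the threshold, and 34 changed sign, none past it. The number of these genes called was 0 in all 64 recomputed counts, and the counts of the class I and class II pathway lists were 0 in all but 2 of 128, 1 each for class I with DESeq2 (DNAgel against GS and GS against Control). For 18 of the 27 fold changes no setting changed the sign.

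Signs changed for DNAgel against Control in RT1-S3 (0.000614 with DESeq2, 0.00406 with no filter, 0.000581 with DESeq2 size factors) and RT1-DMb (0.29 with limma and a pseudocount of 0.01). For DNAgel against GS, limma with pseudocounts of 0.1, 0.01 and 1 gave 0.047, 0.048 and 0.042 for RT1-T24-4, 0.16, 0.20 and 0.061 for Cd74, and 0.036, 0.041 and 0.017 for RT1-Da. The cause was not tested. With 1 library left out, the fold change for DNAgel against GS ranged from -0.040 to 0.14 (RT1-S3), -0.16 to 0.018 (RT1-T24-4), -0.32 to 0.53 (Cd74) and -0.19 to 0.14 (RT1-Da). For DNAgel against Control it ranged from -0.081 to 0.043 (RT1-S3), -0.071 to 0.25 (RT1-T24-1) and -1.38 to 5.07 (RT1-DMb), and for GS against Control from -0.15 to 0.032 (RT1-S3) and -0.027 to 6.07 (RT1-DMb). The value of 5.07 is without Control 3, the only Control library with RT1-DMb counts.

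With a replicate block 0 of the 9 genes were called in any comparison, and the fold change of Cd74 for DNAgel against GS became 0.043. The unadjusted p of B2m for GS against Control, 0.0339 with no block, was 0.0483 with a block on all 9 libraries and 0.0627 with a block on the GS and Control libraries alone. Deviations of same-numbered GS and Control libraries correlated at -0.00282 to 0.103 over all genes tested and those of DNAgel libraries did not, so the numbers were not taken as pairs. Over genes with a mean FPKM of at least 1 the same-numbered GS and Control libraries did deviate together. Their correlations were 0.303 to 0.524, against -0.479 to 0.0431 for different numbers. Differently numbered DNAgel libraries reached values as high, from -0.529 to 0.614 with Control and from -0.453 to 0.525 with GS. Same-numbered DNAgel libraries stood at -0.441 to -0.0642 with Control and -0.0544 to 0.00328 with GS. Deviating together was thus not particular to shared numbers. The high values of DNAgel 1 were with GS 3 (0.355) and Control 3 (0.543). Those of DNAgel 2 were with GS 1 (0.459) and Control 1 (0.303), and those of DNAgel 3 with GS 2 (0.525) and Control 2 (0.614). These sets hold the same-numbered GS and Control libraries, with DNAgel under another number. The block on all 9 libraries went by number and did not cover these sets. No source says what a number marks, and a shared origin of such sets was not tested. The class II share is 0% in each group when only genes with a mean FPKM of at least 1 are kept, because no class II gene reaches it, and 3.83% in GS with the B and D chains alone. Levels under 12 counts a group cannot be compared.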
